A study of Mus musculus with 12 samples.

Results

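The 49 genes described here encode the proteins that copy nuclear DNA and the enzymes that supply its nucleotides and histones. They were chosen by symbol from a list of replication genes. All 49 were found among the 55450 genes of the deposited table, and all 49 passed the filter on low counts that left 14346 genes for testing. The table holds 12 libraries of total RNA, depleted of ribosomal RNA, from donor-derived marrow cells without lineage markers that carried the receptor Kit, a sorted population rich in stem and progenitor cells. The cells came from recipients of competitive marrow transplants, in which donor cells of a given genotype engraft beside competitor cells. The 4 genotype labels with 3 libraries each were wild type (WT), knockout of Tet2 (Tet2KO), knockout of Id1 (Id1KO) and knockout of both genes (dKO). Tet2 encodes an enzyme that oxidises methylcytosine in DNA, and Id1 encodes an inhibitor of basic helix-loop-helix transcription factors. The design allows the labels to be compared pairwise and the Tet2 and Id1 labels to be tested for interaction. The alleles, the strain, sex and age of the mice, and the number of mice behind a library are not given in the sources used here.

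Titles give all 3 libraries of a label the same sample number, so they may be repeats of a single cell sample. The tests then compare these libraries, p-values measure only a spread between libraries that may be technical, and genotype and cell sample cannot be told apart. Library totals of estimated counts ran from 15706407 to 19959183. Tet2 was at 99.3 ± 2.2 CPM in the WT libraries and at 130 ± 2.5, 92 ± 1.5 and 118 ± 3.1 CPM in those of Tet2KO, Id1KO and dKO. CPM is a count divided by the library's total after TMM scaling, and ± gives the SD of n = 3 libraries. Id1 was at 1.47 ± 0.27 CPM in WT and 3.86 ± 0.42, 3.96 ± 0.34 and 3.93 ± 0.5 CPM in Tet2KO, Id1KO and dKO. Neither gene was lower in libraries labelled null for it, and counts over a whole gene do not show the loss of part of it. Every genotype name below is therefore the label of a library. Transcripts of the sorting and leukocyte markers were present in every label, Kit at means of 315 to 365 CPM and Ptprc at 209 to 239 CPM.

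DNA replication starts at origins that the origin recognition complex marks in G1. Cdc6 and Cdt1 load the ring of MCM proteins there, and Cdc45, the GINS complex and Mcm10 turn this ring into an active helicase at the start of S phase. Polymerase alpha with primase begins each strand, polymerases delta and epsilon extend it, and a clamp, its loader, a single-strand binding complex, a flap nuclease and a ligase complete the copy. Ribonucleotide reductase and the thymidylate enzymes supply deoxynucleotides, and new histones are packed behind the fork. Many of these genes are textbook targets of E2F transcription factors, which activate them as a cell passes from G1 into S. In marrow, dividing progenitors carry most of this transcription.

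Promoter sequence of the members was taken from RefSeq windows on GRCm38.p6 that reach from 250 bases before a gene's start to 50 after it. The windows covered 41 of the 49 members. Those of Gins1, Gins2, Gins4, Gmnn, Mcm4, Pole, Prim2 and Rfc2 were not analysed here. The first 4 stretches below carry an exact E2F octamer, shown in capitals, upstream of the start. They belong to Mcm6 and Mcm5, the core helicase subunits with the highest level per length, Pola1, the catalytic subunit of polymerase alpha, and Chaf1a, the large subunit of the chromatin assembly factor. The Mcm6 stretch (chr1:128359706-128359855, minus strand) holds 2 such octamers. The others lie at chr8:75109359-75109508, plus strand, at chrX:93632156-93632305, minus strand and at chr17:56040266-56040415, plus strand, and hold 1 each. All stretches are 150 bases long and are written 5′ to 3′ along the gene's strand.
Mcm6: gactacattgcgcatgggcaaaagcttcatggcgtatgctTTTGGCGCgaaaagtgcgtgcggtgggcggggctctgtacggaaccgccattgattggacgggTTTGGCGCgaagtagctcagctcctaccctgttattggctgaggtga
Mcm5: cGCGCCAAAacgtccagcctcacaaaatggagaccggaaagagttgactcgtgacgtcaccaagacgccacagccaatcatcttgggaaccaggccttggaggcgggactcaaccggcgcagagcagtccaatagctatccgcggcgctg
Pola1: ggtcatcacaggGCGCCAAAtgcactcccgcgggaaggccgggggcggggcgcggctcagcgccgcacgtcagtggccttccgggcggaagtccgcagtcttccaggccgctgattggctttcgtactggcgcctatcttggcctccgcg
Chaf1a: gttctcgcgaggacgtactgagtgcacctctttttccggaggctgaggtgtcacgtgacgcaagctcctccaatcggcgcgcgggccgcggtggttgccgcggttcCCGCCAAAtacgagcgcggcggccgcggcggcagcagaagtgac

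The next 3 stretches belong to the members with the lowest log2 fold changes in Tet2KO against WT, and none holds an E2F octamer. They are those of Rfc4 (chr16:23127738-23127887, minus strand), a clamp loader subunit, Orc2 (chr1:58505110-58505259, minus strand), an origin recognition subunit, and Rpa3 (chr6:8259174-8259323, minus strand), the smallest subunit of the single-strand binding complex. Capitals mark the NF-Y pentamer CCAAT or its reverse complement, which occurs 2 times in the Rpa3 stretch. The Rfc4 and Rpa3 stretches end 7 and 32 bases above the last base before the RefSeq start, and all others end at that base. No Sp1 hexamer GGGCGG lies in any of the 3 on either strand.
Rfc4: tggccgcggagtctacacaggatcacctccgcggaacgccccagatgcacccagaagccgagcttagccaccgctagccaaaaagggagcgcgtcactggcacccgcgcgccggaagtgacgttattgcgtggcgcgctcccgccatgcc
Orc2: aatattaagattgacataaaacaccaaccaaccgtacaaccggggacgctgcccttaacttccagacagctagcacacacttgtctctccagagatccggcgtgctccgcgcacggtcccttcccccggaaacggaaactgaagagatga
Rpa3: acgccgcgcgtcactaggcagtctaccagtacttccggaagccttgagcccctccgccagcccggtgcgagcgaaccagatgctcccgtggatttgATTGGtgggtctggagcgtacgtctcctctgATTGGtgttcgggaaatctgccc

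Exact E2F octamers were frequent in the members' promoters. The 4 octamers searched on both strands were TTTGGCGC, TTTCCCGC, TTTGGCGG and TTTCCCGG. At least 1 of them occurred in 18 of 41 members with a window, 43.9%. It occurred in 3.8% of 27025 genes with a window and 6.9% of the 9878 tested genes with one. Many members are textbook E2F targets, so a raised share in this chosen list is no independent result. In the 250 bases before the start alone, the shares were 22.0% of members and 3.1% of genes. By role, a match was found in 4 of 5 MCM core genes, 5 of 7 polymerase and primase genes, 4 of 8 licensing genes, 3 of 10 clamp, loader, binding and joining genes, 1 of 3 helicase activation genes, 1 of 3 histone genes and 0 of 5 nucleotide supply genes. The Sp1 hexamer was in 78.0% of members and 67.7% of tested genes with a window. The NF-Y pentamer was in 61.0% of members and 43.2% of tested genes. The cell cycle homology element, searched as TTTGAA or TTCGAA on both strands, was in 17.1% and 16.7%. Such matches are exact letters in a window and not measured binding sites.

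Per length of merged exons, Pcna, which encodes the sliding clamp, had the highest member transcript level, at 152 RPKM (CPM per kilobase of merged exon, mean over 12 libraries). Core helicase genes followed, with Mcm6 at 138, Mcm5 at 123, Mcm3 at 110 and Mcm7 at 106 RPKM. The subunits of a single complex were not even. The 6 MCM core genes ran from 53.4 RPKM for Mcm2 to 138 for Mcm6, and the 6 origin recognition genes from 5.31 RPKM for Orc4 to 26.2 for Orc2. The 5 clamp loader genes lay between 12 RPKM for Rfc3 and 35 for Rfc4, well below the clamp. Dut, the phosphatase that removes dUTP, stood at 71.8 RPKM and Rrm2, the small subunit of ribonucleotide reductase, at 63.6, whereas Tyms, thymidylate synthase, stood at 13.7. Raw estimated counts ran from 341 to 13195 per member and library. The coefficient of variation of their CPM within a label had a median of 2.5%, from 0.3% to 9.8%.

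**Figure D1:**
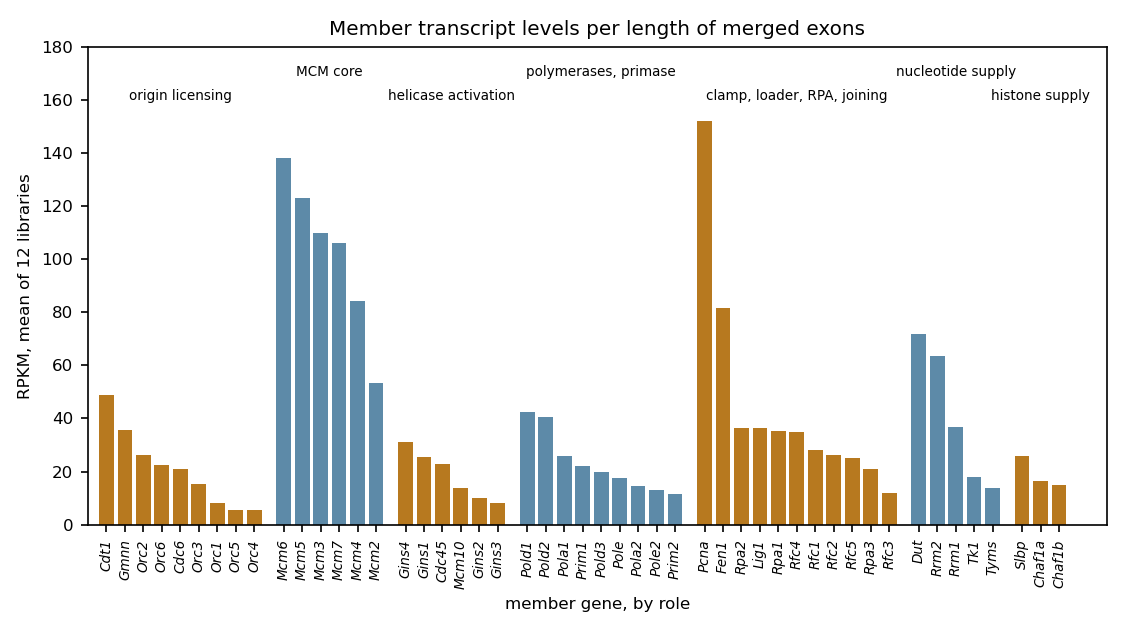
Bars give the mean RPKM over 12 libraries (vertical axis, from 0) of each of the 49 members, ordered by role and then by level. Pcna at 152 and Mcm6 at 138 RPKM stand highest, and Orc4 at 5.31 RPKM stands lowest.

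Replication transcripts were slightly lower in libraries labelled Tet2KO and near the WT level in those labelled dKO. Summed over the 49 members, CPM in Tet2KO was 94.8% ± 0.45 of the WT mean (SD, n = 3), in Id1KO 97.9% ± 0.76 and in dKO 100.3% ± 0.67. Between Tet2KO and WT, 24 members fell and none rose. Between dKO and Tet2KO, 20 members rose and none fell. All differences were small, and no member differed by more than 0.31 on the log2 scale between any pair of labels compared. Of the 49 members, 31 had their lowest mean in Tet2KO, 12 in Id1KO, 4 in WT and 2 in dKO.

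**Figure D2:**
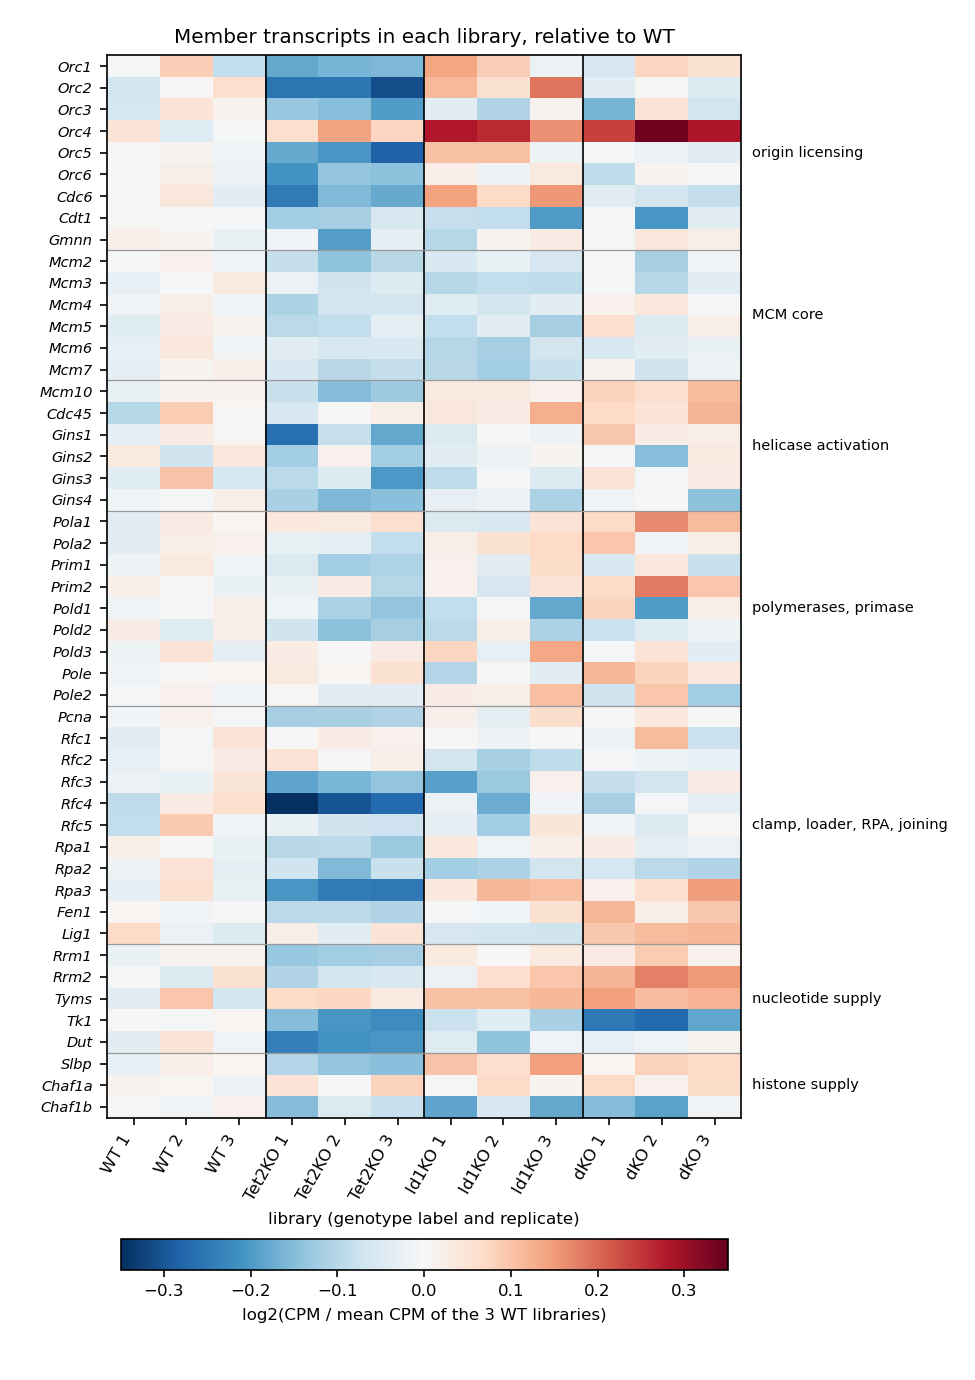
Each cell gives the log2 ratio of a member's CPM in a library (columns, by label and replicate) to the mean CPM of the 3 WT libraries, with members in rows by role and colour from blue (lower) to red (higher). The 3 Tet2KO columns are mostly blue, and 31 of the 49 members have their lowest mean there.

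These calls rest on edgeR's quasi-likelihood test with Benjamini-Hochberg adjustment over 14346 genes at a threshold of 0.05. In Tet2KO against WT, 24 of 49 members fell, 49% of them, when 16.2% of all tested genes fell. None of the members rose, when 16.6% of all tested genes did. The median log2 fold change was -0.09 over members and 0 over all genes. In dKO against Tet2KO, 20 of 49 rose, 40.8%, against 13.1% of all genes, and 0 fell, against 13.4%, with a median of 0.09 over members and 0 over all genes. These contrasts share the Tet2KO libraries, so their directions are not independent of each other. Compared libraries did not overlap, in either direction, for 31 members in the first (63.3%, all genes 46%) and 28 in the second (57.1%, all genes 39.9%). None of the members passed a test against a 1.2-fold change in any contrast. An edgeR adjusted p given below without a named library is that of the fit to all 12 libraries. Where a left-out library is named with it, the value is the highest of 12 fits that each left out 1 library. Leaving out other libraries also lost several of these calls.

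Fewer members were called in the contrasts without the Tet2KO libraries. In Id1KO against WT, 4 members rose (8.16%, all genes 7.26%) and 6 fell (12.2%, all genes 7.77%), with a median of -0.02 over members and -0.01 over all genes. In dKO against WT, 5 rose (10.2% of members and 10.2% of all genes) and 1 fell (2.04%, all genes 8.97%), with medians of -0.01 and 0. In dKO against Id1KO, 5 rose (10.2%, all genes 10.6%) and 3 fell (6.12%, all genes 8.7%), with medians of 0.02 and 0. Compared libraries did not overlap for 19 members in Id1KO against WT (38.8%, all genes 32.7%), 14 in dKO against WT (28.6%, all genes 33.1%) and 14 in dKO against Id1KO (28.6%, all genes 33.2%). Single libraries decided several of these counts. The 4 that rose in Id1KO against WT became 1 without Id1KO replicate 1 or 3, and 2 without WT replicate 1 or 3. The 6 that fell became 0 without WT replicate 2, 1 without WT replicate 3 or Id1KO replicate 1 or 2, 2 without Id1KO replicate 3 and 3 without Tet2KO replicate 3. The 5 that rose in dKO against WT became 3 without WT replicate 1 or 3 and 8 without Id1KO replicate 3, and the 1 that fell became 2 without dKO replicate 3. The 5 that rose in dKO against Id1KO became 2 without Id1KO replicate 1 and 3 without dKO replicate 3.

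**Figure D3:**
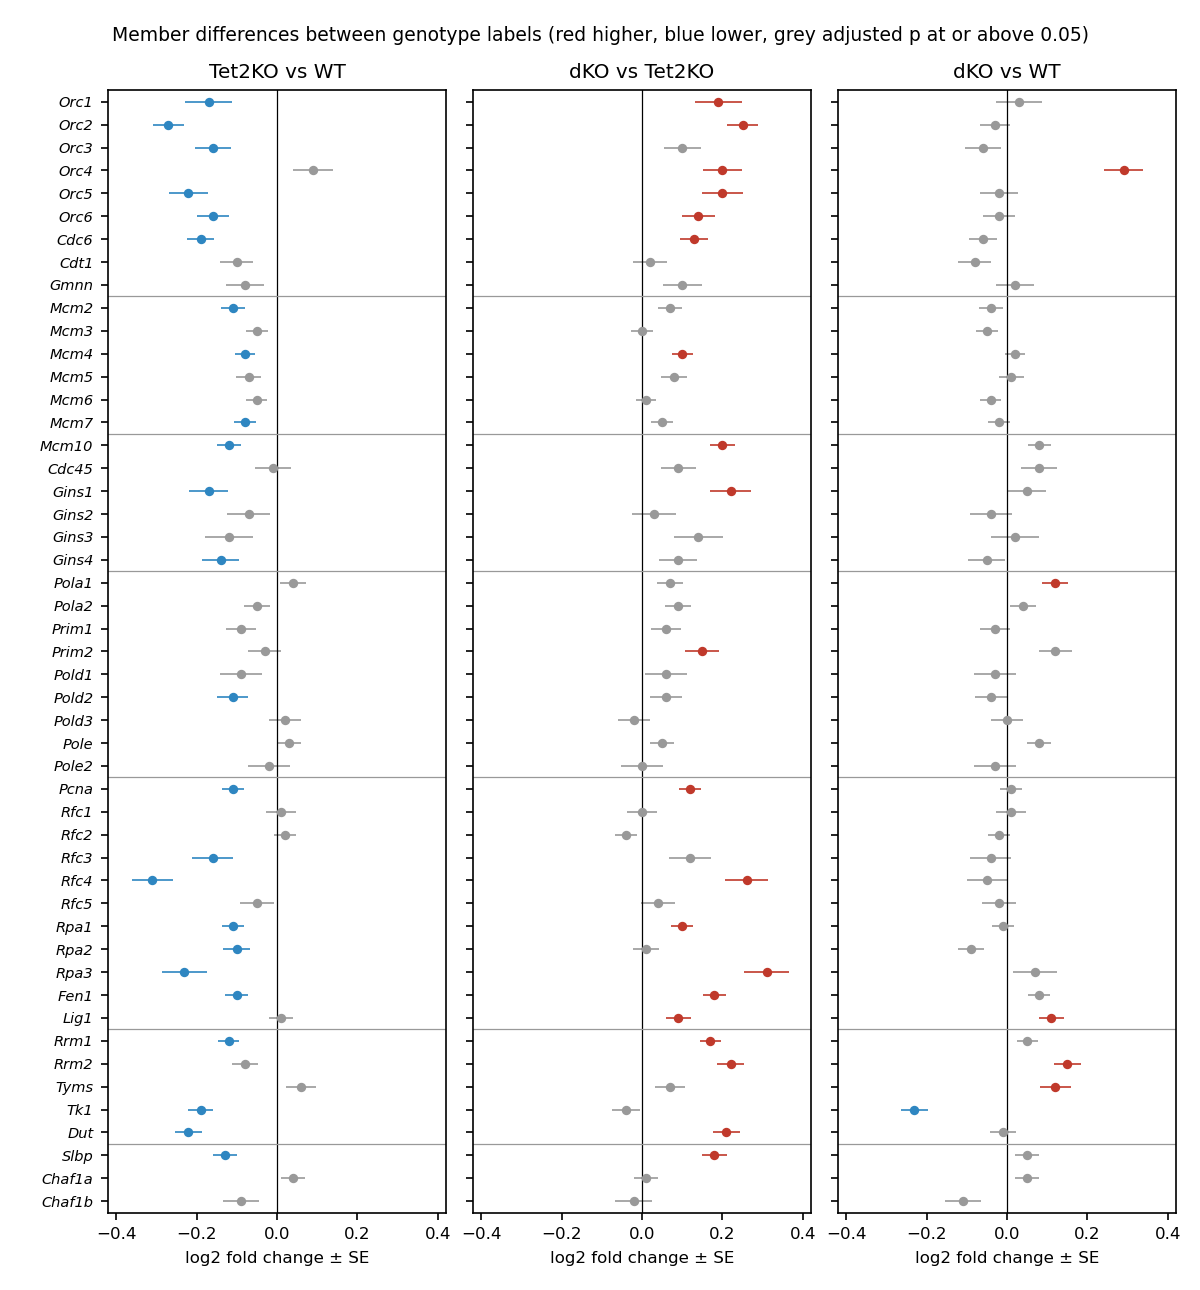
Points give each member's log2 fold change (horizontal axis) with its standard error for Tet2KO against WT, dKO against Tet2KO and dKO against WT, with members in rows by role. The 24 blue points of the first panel fell, the 20 red points of the second rose, and 43 of 49 points of the third did not pass the threshold.

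Of the 7 role groups, origin recognition and licensing had the lowest summed level relative to WT in libraries labelled Tet2KO. Their summed CPM was 90.2% ± 0.39 of the WT mean there, 101.8% ± 1.1 in Id1KO and 98.3% ± 0.42 in dKO. In Tet2KO against WT, 6 of 9 fell, namely Orc1, Orc2, Orc3, Orc5, Orc6 and the loading factor Cdc6. In dKO against Tet2KO, Orc1, Orc2, Orc4, Orc5, Orc6 and Cdc6 rose. Cdt1, which works with Cdc6, and Gmnn, which encodes the Cdt1 inhibitor geminin, did not pass in any contrast. The Orc1 and Orc3 falls were lost without WT replicate 2 (edgeR adjusted p 0.188 and 0.0618). Over the 12 fits that left out 1 library, the Orc1 fall was lost in 5 and the Orc3 fall in 2. DESeq2 and thinned counts also lost the Orc1 fall. The Orc1 rise was lost without dKO replicate 2 (edgeR adjusted p 0.0831), and that of Orc6 without Tet2KO replicate 1 (edgeR adjusted p 0.0836).

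Orc2 (chromosome 1, 58462771 to 58505109, minus strand) was at 99.3, 104 and 108 CPM in the WT libraries, 86.9, 87.1 and 83.7 in Tet2KO, 112, 108 and 118 in Id1KO, and 101, 104 and 100 in dKO. All 3 Tet2KO libraries lay below every other library. Orc2 fell by 0.27 on the log2 scale in Tet2KO against WT (SE 0.038, edgeR adjusted p 1.61e-05) and rose by 0.25 ± 0.039 (SE) in dKO against Tet2KO (edgeR adjusted p 9.51e-05). In Id1KO against WT it was 0.12 ± 0.037 (edgeR adjusted p 0.0326, and 0.153 without Id1KO replicate 3), and in dKO against Id1KO -0.15 ± 0.037 (edgeR adjusted p 0.00863, and 0.0559 without Id1KO replicate 3). Orc2 shares 1150 bp of exon with Nif3l1 on the opposite strand. Nif3l1 was at a mean of 28.1 CPM with a log2 fold change of -0.14 in Tet2KO against WT, and how strand was treated in counting is not given in the sources used here.

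Cdc6 was at 110, 114 and 108 CPM in WT, 93.3, 99.5 and 98 in Tet2KO, 122, 116 and 123 in Id1KO, and 108, 106 and 104 in dKO. The Tet2KO libraries were lowest and the Id1KO libraries highest, with no overlap between these labels and the rest. Cdc6 fell by 0.19 on the log2 scale in Tet2KO against WT (SE 0.034, edgeR adjusted p 0.000202) and rose by 0.12 ± 0.033 in Id1KO against WT (edgeR adjusted p 0.0155, and 0.0709 without WT replicate 3). It rose by 0.13 ± 0.035 in dKO against Tet2KO (edgeR adjusted p 0.00841, and 0.0563 without Tet2KO replicate 1) and fell by 0.18 in dKO against Id1KO (edgeR adjusted p 0.00053).

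Orc4 had another order of labels than the other origin recognition genes. It was at 36.7, 34.4 and 35.4 CPM in WT, 36.9, 39.2 and 37.4 in Tet2KO, 43.1, 42.5 and 39.7 in Id1KO, and 41.9, 44.9 and 43.2 in dKO. The libraries of both labels with Id1 knockout lay above all others. The log2 fold change was 0.23 ± 0.048 in Id1KO against WT (edgeR adjusted p 0.00217), 0.2 ± 0.049 in dKO against Tet2KO (edgeR adjusted p 0.00511) and 0.29 ± 0.048 in dKO against WT (edgeR adjusted p 0.000223). In Tet2KO against WT it was 0.09 ± 0.049 with an edgeR adjusted p of 0.16. Cdt1 was at 162, 161 and 161 CPM in WT and 148, 149 and 155 in Tet2KO, with an edgeR adjusted p of 0.0776. It ran from 141 to 152 CPM in Id1KO and from 140 to 161 in dKO, where the libraries spread most. Gmnn ran from 46.5 to 54.5 CPM over the 12 libraries, and of the label pairs compared, dKO and Tet2KO alone did not overlap.

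The MCM core, the ring that unwinds DNA, was lower by a similar margin in libraries labelled Tet2KO and Id1KO. The summed CPM of its 6 genes was 95.3% ± 0.81 of WT in Tet2KO, compared with 94.6% ± 0.25 in Id1KO and 98.4% ± 2 in dKO. Mcm2, Mcm4 and Mcm7 fell in Tet2KO against WT, and Mcm3, Mcm6 and Mcm7 fell in Id1KO against WT. Only Mcm4 rose in dKO against Tet2KO, by 0.1 ± 0.026 (edgeR adjusted p 0.00761). When a library was left out of the Tet2KO against WT contrast, the edgeR adjusted p became 0.0659 for Mcm2 without Tet2KO replicate 2, 0.0981 for Mcm4 without WT replicate 2 and 0.156 for Mcm7 without WT replicate 3. That of Mcm3 in Id1KO against WT became 0.154 without WT replicate 3. The calls of Mcm7 in Tet2KO and of Mcm3 in Id1KO were each lost in 6 of the 12 fits that left out 1 library.

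Mcm6, whose promoter stretch is printed above, was at 650, 680 and 659 CPM in WT, 646, 638 and 639 in Tet2KO, 619, 612 and 634 in Id1KO, and 638, 646 and 652 in dKO. The Id1KO libraries were the lowest, and the Tet2KO libraries lay just under the WT range. The log2 fold change was -0.09 ± 0.025 in Id1KO against WT (edgeR adjusted p 0.0165, and 0.0994 without WT replicate 2) and -0.05 ± 0.026 in Tet2KO against WT (edgeR adjusted p 0.148). Mcm5 was at 491, 515 and 509 CPM in WT, 474, 476 and 493 in Tet2KO, 476, 491 and 466 in Id1KO, and 526, 487 and 513 in dKO and no label stood clear of the others. Its only pairwise call was in dKO against Id1KO, at 0.09 ± 0.031 with an edgeR adjusted p of 0.0487. That call was lost in 9 of the 12 fits that left out 1 library and in 7 of 10 other settings. The highest edgeR adjusted p on leaving out a library was 0.207, without dKO replicate 1. Mcm7 was at 476, 490 and 494 CPM in WT, 469, 456 and 460 in Tet2KO, 455, 448 and 461 in Id1KO, and 491, 464 and 481 in dKO. The WT libraries lay above all of the Tet2KO and Id1KO libraries. Mcm7 fell by 0.08 on the log2 scale in Tet2KO (SE 0.027, edgeR adjusted p 0.0346) and by 0.1 in Id1KO (SE 0.027, edgeR adjusted p 0.0178, and 0.0938 without WT replicate 3).

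Of the 6 helicase activation genes, Mcm10, Gins1 and Gins4 fell in Tet2KO against WT, and Mcm10 and Gins1 rose in dKO against Tet2KO. The group's summed CPM was 93.6% ± 1 of WT in Tet2KO, compared with 100.7% ± 0.6 in Id1KO and 103% ± 1.6 in dKO. Gins1, a subunit of the GINS complex, was at 38.5, 40 and 39.4 CPM in WT, 32.7, 37.2 and 34.7 in Tet2KO, 38, 39.3 and 38.8 in Id1KO, and 42, 40.1 and 39.9 in dKO. The Tet2KO libraries lay below all others. The log2 fold change was -0.17 ± 0.049 in Tet2KO against WT (edgeR adjusted p 0.0101, and 0.0711 without Tet2KO replicate 1) and 0.22 ± 0.05 in dKO against Tet2KO (edgeR adjusted p 0.0025). Gins4, another GINS subunit, was at 43.3, 43.6 and 44.4 CPM in WT and at 40.4, 39.3 and 39.5 in Tet2KO, with no overlap. It fell by 0.14 on the log2 scale with an edgeR adjusted p of 0.0254, which became 0.0985 without WT replicate 3. Its range was 40.6 to 43.1 CPM in Id1KO and 39.6 to 43.7 in dKO. Cdc45, Gins2 and Gins3 did not pass in any contrast.

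The polymerases and primase differed least between Tet2KO and WT. Their summed CPM was 98.4% ± 1.4 of WT in Tet2KO, compared with 98.7% ± 1.2 in Id1KO and 102.6% ± 0.92 in dKO. Of 9 genes, Pold2 alone fell in Tet2KO against WT, and Prim2, the large primase subunit, alone rose in dKO against Tet2KO, with an edgeR adjusted p of 0.012 that became 0.0885 without Tet2KO replicate 3. Pold2, the second subunit of polymerase delta, was at 80.9, 77.2 and 80.5 CPM in WT and 75.8, 72 and 73.5 in Tet2KO, with no overlap, and had a log2 fold change of -0.11 ± 0.039. Its edgeR adjusted p was 0.0353, and 0.161 without Tet2KO replicate 2. The Pold2 call was lost in 6 of the 12 fits that left out 1 library and in 2 of 10 other settings. Pold1, the catalytic subunit of polymerase delta, had wider libraries, at 212, 213 and 217 CPM in WT, 212, 198 and 195 in Tet2KO, 202, 214 and 189 in Id1KO, and 226, 187 and 218 in dKO. It passed in no contrast.

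Pola1 and Pole, the catalytic subunits of polymerases alpha and epsilon, had their highest means in libraries labelled dKO. Pola1 was at 215, 226 and 222 CPM in WT, 227, 226 and 230 in Tet2KO, 214, 212 and 229 in Id1KO, and 232, 248 and 239 in dKO. The 3 dKO libraries lay above the other 9. Pola1 rose by 0.12 ± 0.032 in dKO against WT (edgeR adjusted p 0.0144, and 0.0589 without dKO replicate 2) and by 0.14 ± 0.032 in dKO against Id1KO (edgeR adjusted p 0.00519). Pole was at 191, 193 and 194 CPM in WT, 197, 194 and 200 in Tet2KO, 180, 193 and 188 in Id1KO, and 209, 204 and 198 in dKO. Its dKO and Tet2KO libraries overlapped, and Pole did not pass in dKO against WT (edgeR adjusted p 0.0769). It rose by 0.12 ± 0.03 in dKO against Id1KO, with an edgeR adjusted p of 0.00654 that became 0.0609 without Id1KO replicate 1.

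Among the genes of the clamp, its loader, single-strand binding and strand joining, 7 of 11 fell in Tet2KO against WT and 6 of 11 rose in dKO against Tet2KO. The 7 were Pcna, Rfc3, Rfc4, Rpa1, Rpa2, Rpa3 and Fen1, and the 6 were Pcna, Rfc4, Rpa1, Rpa3, Fen1 and Lig1. The summed CPM was 95% ± 0.51 of WT in Tet2KO, compared with 98.5% ± 2.1 in Id1KO and 100.8% ± 0.47 in dKO. The clamp loader genes did not move as a unit in Tet2KO against WT. Rfc3 and Rfc4 fell, whereas Rfc1, Rfc2 and Rfc5 did not pass. In Id1KO against WT, Rfc2 and Rpa2 fell. Without WT replicate 3 the edgeR adjusted p became 0.0976 for the fall of Rfc3 in Tet2KO and 0.139 for that of Rfc2 in Id1KO, and without Tet2KO replicate 3 that of the Rpa1 rise in dKO became 0.0654.

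Rfc4 had the lowest member log2 fold change in Tet2KO against WT. It was at 54.3, 58.9 and 59.9 CPM in WT, 44.5, 46.8 and 47.8 in Tet2KO, 56.9, 51.2 and 57.2 in Id1KO, and 53.2, 57.5 and 56.4 in dKO. The 3 Tet2KO libraries lay below all other libraries, and the other labels overlapped. The log2 fold change was -0.31 ± 0.051 in Tet2KO against WT (edgeR adjusted p 9.24e-05) and 0.26 ± 0.053 in dKO against Tet2KO (edgeR adjusted p 0.000887). Rpa3 was at 23.5, 25.1 and 23.7 CPM in WT, 20.9, 20.3 and 20.2 in Tet2KO, 24.7, 26.1 and 25.9 in Id1KO, and 24.3, 25.1 and 26.6 in dKO. Again the Tet2KO libraries were the lowest. Rpa3 fell by 0.23 in Tet2KO against WT (SE 0.055, edgeR adjusted p 0.00262) and rose by 0.31 ± 0.056 in dKO against Tet2KO (edgeR adjusted p 0.000348).

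Pcna and Fen1, the clamp and the flap nuclease that binds it, were also lowest in libraries labelled Tet2KO, by smaller differences. Pcna was at 368, 375 and 369 CPM in WT, 342, 342 and 345 in Tet2KO, 375, 362 and 387 in Id1KO, and 371, 380 and 370 in dKO. It fell by 0.11 in Tet2KO against WT (SE 0.027, edgeR adjusted p 0.00326) and rose by 0.12 ± 0.027 in dKO against Tet2KO (edgeR adjusted p 0.00186). A processed copy, Pcna-ps2, held 0.472% of the joint counts, and adding the counts of such copies changed no member's call. Fen1 was at 199, 197 and 198 CPM in WT, 185, 185 and 184 in Tet2KO, 197, 196 and 205 in Id1KO, and 214, 201 and 211 in dKO. It fell by 0.1 in Tet2KO against WT (edgeR adjusted p 0.0118, and 0.0561 without Tet2KO replicate 3) and rose by 0.18 ± 0.029 in dKO against Tet2KO (edgeR adjusted p 0.000134).

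Rpa2 and Lig1 had other orders of labels. Rpa2, the middle subunit of the single-strand binding complex, was at 113, 119 and 112 CPM in WT, 109, 103 and 109 in Tet2KO, 106, 106 and 110 in Id1KO, and 110, 107 and 107 in dKO. All 9 libraries outside WT lay below the WT range. The log2 fold change was -0.1 in Tet2KO (SE 0.033, edgeR adjusted p 0.0225, and 0.164 without Tet2KO replicate 2) and -0.1 in Id1KO (SE 0.032, edgeR adjusted p 0.0446, and 0.222 without WT replicate 2). The Id1KO call was lost in 10 of the 12 fits that left out 1 library and in 5 of 10 other settings. Lig1, the ligase that joins lagging strand fragments, was at 161, 152 and 149 CPM in WT, 156, 150 and 159 in Tet2KO, 148, 147 and 147 in Id1KO, and 164, 166 and 167 in dKO. The dKO libraries were highest. Lig1 rose by 0.17 ± 0.031 in dKO against Id1KO (edgeR adjusted p 0.000515) and by 0.11 ± 0.031 in dKO against WT (edgeR adjusted p 0.0207, and 0.103 without WT replicate 3). It rose by 0.09 ± 0.031 in dKO against Tet2KO (edgeR adjusted p 0.032, and 0.172 without Tet2KO replicate 2).

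The 5 nucleotide supply genes divided. In Tet2KO against WT, Rrm1, the large subunit of ribonucleotide reductase, Tk1, the thymidine kinase of S phase, and Dut fell, while Rrm2 and Tyms did not pass. In dKO against Tet2KO, Rrm1, Rrm2 and Dut rose. Their summed CPM was 91.8% ± 0.45 of WT in Tet2KO, compared with 100.5% ± 1.3 in Id1KO and 102.3% ± 1.3 in dKO.

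Dut was at 177, 188 and 180 CPM in WT, 154, 157 and 158 in Tet2KO, 176, 165 and 180 in Id1KO, and 178, 180 and 183 in dKO. The Tet2KO libraries lay below all others. Dut fell by 0.22 in Tet2KO against WT (SE 0.033, edgeR adjusted p 3.94e-05) and rose by 0.21 ± 0.033 in dKO against Tet2KO (edgeR adjusted p 0.000113). Rrm2 was at 172, 166 and 179 CPM in WT, 160, 165 and 166 in Tet2KO, 170, 179 and 184 in Id1KO, and 187, 195 and 191 in dKO. The dKO libraries were above all others, and the Tet2KO libraries did not exceed the lowest WT value to 3 digits. Rrm2 rose by 0.22 ± 0.033 in dKO against Tet2KO (edgeR adjusted p 5.09e-05) and by 0.15 ± 0.033 in dKO against WT (edgeR adjusted p 0.003). Its rise of 0.1 ± 0.033 in dKO against Id1KO had an edgeR adjusted p of 0.0332, and of 0.197 without Id1KO replicate 1.

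Tk1 was the 1 member that fell in dKO against WT. It was at 102 CPM in each WT library, 91.7, 88.5 and 87.5 in Tet2KO, 96.7, 99 and 94.2 in Id1KO, and 85.7, 84.5 and 89.8 in dKO. Both labels with Tet2 knockout lay below both labels without it. Tk1 fell by 0.19 in Tet2KO against WT (SE 0.032, edgeR adjusted p 0.00012), by 0.23 in dKO against WT (SE 0.033, edgeR adjusted p 2.9e-05) and by 0.16 in dKO against Id1KO (SE 0.033, edgeR adjusted p 0.00187). Tyms was at 77.1, 84.7 and 75.5 CPM in WT, 83, 83.2 and 80.8 in Tet2KO, 84.9, 84.9 and 85.7 in Id1KO, and 87.4, 85.3 and 86.1 in dKO. Its WT libraries had the widest spread. Tyms rose by 0.12 ± 0.038 in dKO against WT (edgeR adjusted p 0.0248), and the adjusted p by edgeR became 0.124 without WT replicate 3.

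**Figure D4:**
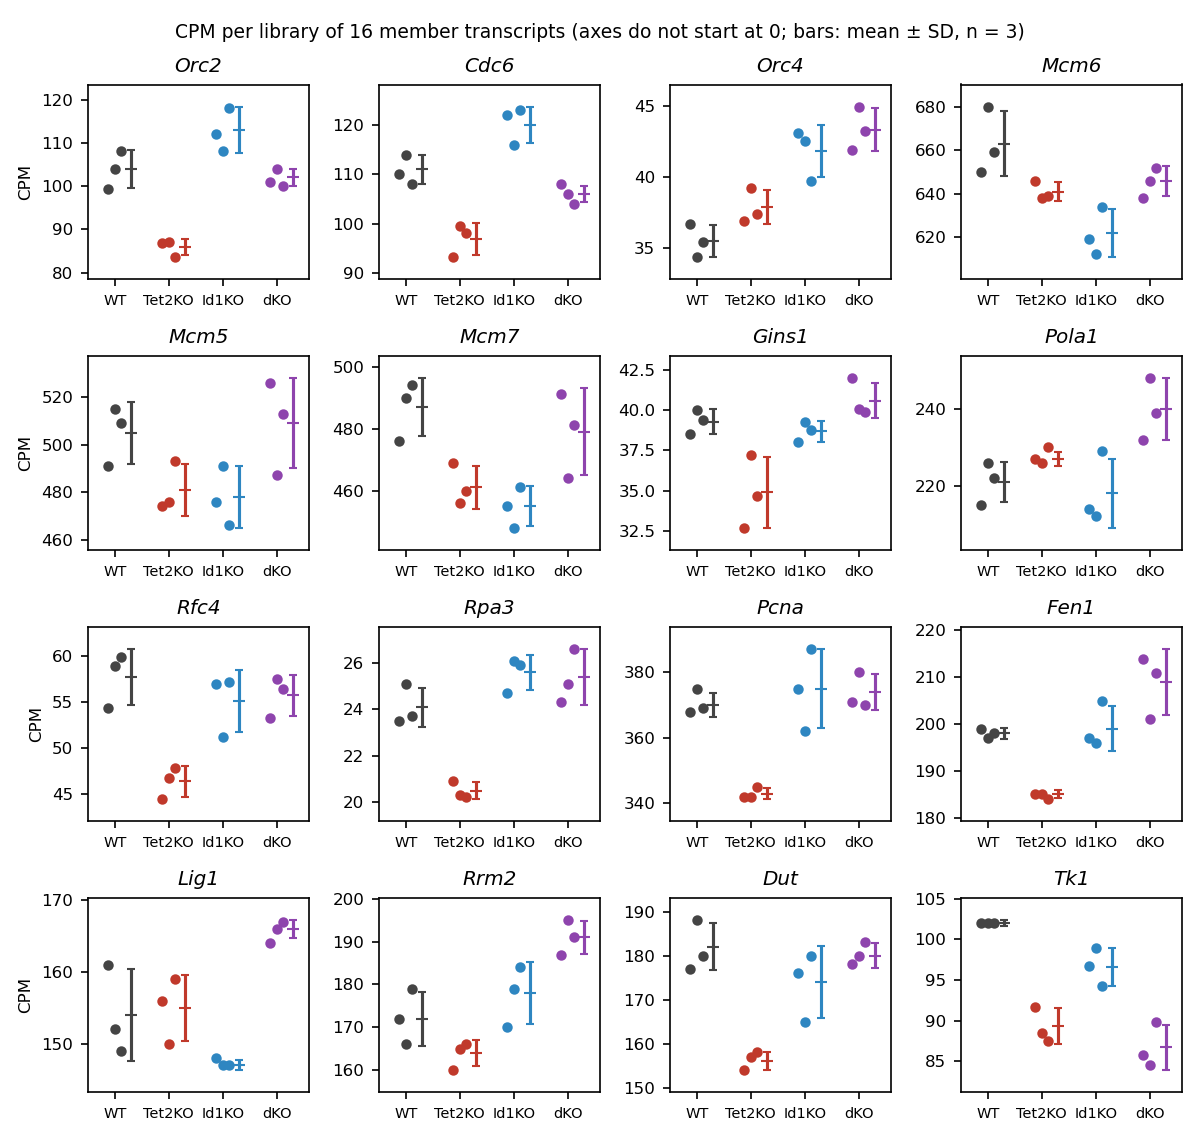
Each panel gives CPM (vertical axis, not from 0) of a member in the 12 libraries, as points by label, with the mean and SD of 3 libraries beside them. In the panels of Orc2, Rfc4, Rpa3, Gins1 and Dut the 3 Tet2KO points are below all others, in that of Orc4 both labels with Id1 knockout are high, and in that of Tk1 both labels with Tet2 knockout are low.

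Slbp, which binds the stem-loop of histone messages, was the histone supply gene that moved with the Tet2KO label. It was at 153, 159 and 157 CPM in WT, 146, 142 and 142 in Tet2KO, 168, 163 and 173 in Id1KO, and 157, 165 and 164 in dKO. The Tet2KO libraries lay below and the Id1KO libraries mostly above the rest. Slbp fell by 0.13 in Tet2KO against WT (SE 0.03, edgeR adjusted p 0.00271) and rose by 0.18 ± 0.031 in dKO against Tet2KO (edgeR adjusted p 0.00018). Its rise of 0.1 ± 0.03 in Id1KO against WT had an edgeR adjusted p of 0.0258, and of 0.105 without Id1KO replicate 3. Chaf1a was at 140 to 143 CPM in WT and at 141 to 150 over the other 9 libraries, and passed in no contrast. It shares 4648 bp of exon with Ubxn6 on the opposite strand. Chaf1b, the middle subunit of the assembly factor, was at 74.5, 74.4 and 75.8 CPM in WT, 67.4, 72.4 and 70.8 in Tet2KO, 65.9, 72.1 and 66.2 in Id1KO, and 67.4, 65.9 and 74.3 in dKO. It fell by 0.14 in Id1KO against WT (SE 0.045), with an edgeR adjusted p of 0.0442 that became 0.191 without Id1KO replicate 1. This call was lost in 8 of the 12 fits that left out 1 library. The summed CPM of the 3 genes was 96.3% ± 0.85 of WT in Tet2KO, compared with 101.9% ± 1.2 in Id1KO and 101.3% ± 2 in dKO.

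Whether the label of one gene moved a member differently with and without the label of the other was tested as an interaction, the log2 difference of dKO and Id1KO less that of Tet2KO and WT. It was positive and past the threshold for 12 of 49 members (24.5%, all genes 7.46%) and negative for 0 (all genes 7.03%), with a median of 0.12 over members and 0.01 over all genes. The 12 were Mcm4, Mcm5, Mcm7, Mcm10, Gins1, Rfc3, Rfc4, Fen1, Lig1, Rrm1, Rrm2 and Dut. Rfc4 had an interaction of 0.33 ± 0.072 (edgeR adjusted p 0.00408), Dut of 0.27 ± 0.046 (edgeR adjusted p 0.000517) and Gins1 of 0.24 ± 0.069 (edgeR adjusted p 0.022, and 0.0696 without Tet2KO replicate 1). None of the licensing or polymerase genes passed, and Tk1 and Orc4 had values of 0.04 ± 0.046 and -0.04 ± 0.068.

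Pairs of contrasts that share no library show which members moved with a label on both backgrounds. Orc2, Cdc6 and Tk1 fell both from WT to Tet2KO and from Id1KO to dKO, which is 12.5% of the 24 members of the first and 100% of the 3 of the second. Over all genes 459 fell in both, 19.8% and 36.8%. For the Id1 label, Orc2, Orc4, Cdc6 and Slbp rose in Id1KO against WT and in dKO against Tet2KO, which is 100% of 4 and 20% of 20, while 292 of all genes did so, 28% and 15.6%. No member fell in dKO against Tet2KO, so none of the 6 that fell in Id1KO against WT could be shared with it. Over all genes 468 fell in both, 42% and 24.4%. Likewise no member rose from WT to Tet2KO, so none of the 5 that rose in dKO against Id1KO could be shared with it. Over all genes 891 rose in both, 58.9% and 37.5%.

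E2F octamers were found in the promoters of 5 of the 21 members with a window that fell in Tet2KO against WT, and in 13 of the 20 that did not pass. Upstream of the start alone, the counts were 4 of 21 and 5 of 20. These counts describe the letters of the windows, and no test was made of them.

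Genes beyond the 49 in the same pathways were counted from lists of other replication, nucleotide and cell cycle genes. Of 35 other replisome and origin genes, 9 fell (25.7%, all genes 16.2%) and 2 rose (5.71%, all genes 16.6%) in Tet2KO against WT. In dKO against Tet2KO, 9 rose (25.7%, all genes 13.1%) and 1 fell (2.86%, all genes 13.4%). The helicase gene Recql4 had log2 fold changes of -0.38 ± 0.052 (edgeR adjusted p 1.22e-05) and 0.41 ± 0.052 (edgeR adjusted p 8.88e-06) in these contrasts. Of 34 other nucleotide synthesis genes, 15 fell (44.1%, all genes 16.2%) and 1 rose (2.94%, all genes 16.6%) in Tet2KO against WT. In dKO against Tet2KO, 17 rose (50%, all genes 13.1%) and 2 fell (5.88%, all genes 13.4%). Mthfd1, a folate enzyme that feeds purine and thymidylate synthesis, was at -0.41 ± 0.029 (edgeR adjusted p 1.59e-09) and 0.42 ± 0.029 (edgeR adjusted p 2.5e-09), and Samhd1, which degrades deoxynucleotides, rose by 0.26 ± 0.038 in Tet2KO against WT (edgeR adjusted p 2.72e-05).

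Regulators of S phase entry and genes of the later cell cycle phases were counted in the same way. Of 24 G1 to S regulators, 7 fell (29.2%, all genes 16.2%) and 3 rose (12.5%, all genes 16.6%) in Tet2KO against WT. In dKO against Tet2KO, 6 rose (25%, all genes 13.1%) and 2 fell (8.33%, all genes 13.4%). Ccne1, the cyclin that drives S phase entry, was at -0.45 ± 0.05 (edgeR adjusted p 8.61e-07) and 0.53 ± 0.051 (edgeR adjusted p 2.32e-07). The E2F factor genes went both ways. E2f1, an activating E2F factor, rose by 0.17 ± 0.057 (edgeR adjusted p 0.0237) in the first and fell by 0.26 in the second (edgeR adjusted p 0.00224), opposite in sign to the members. E2f4 had the members' signs, at -0.27 ± 0.047 (edgeR adjusted p 0.000198) and 0.33 ± 0.047 (edgeR adjusted p 3.9e-05). In Tet2KO against WT, E2f7 and E2f2 also rose, by 0.23 and 0.17, and E2f6 also fell, at -0.21. Of 25 G2 and M phase genes, 4 fell (16%, all genes 16.2%) and 3 rose (12%, all genes 16.6%) in Tet2KO against WT. In dKO against Tet2KO, 20 rose (80%, all genes 13.1%) and none fell (all genes 13.4%). G2 and M phase genes also rose in contrasts without the Tet2KO libraries. There were 15 in Id1KO against WT (60%, all genes 7.26%) and 22 in dKO against WT (88%, all genes 10.2%). Their summed CPM was 103% ± 0.51 of WT in Tet2KO, compared with 107.8% ± 1.2 in Id1KO and 112.2% ± 1.4 in dKO.

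In the contrasts of Tet2KO with WT and with dKO, erythroid markers moved in the members' directions and by more. Of 20 erythroid marker genes, 19 fell in Tet2KO against WT (95%, all genes 16.2%) and 19 rose in dKO against Tet2KO (95%, all genes 13.1%). In Id1KO against WT, 3 rose (15%, all genes 7.26%) and 0 fell (all genes 7.77%). In dKO against Id1KO, 5 rose (25%, all genes 10.6%) and 6 fell (30%, all genes 8.7%). A positive interaction was called for 18 of these genes (90%, all genes 7.46%). Their summed CPM ran from 98.9% to 101.7% of the WT mean over libraries labelled WT, from 59.1% to 59.8% in Tet2KO, from 109.6% to 110.9% in Id1KO and from 99.6% to 99.9% in dKO, and none of the 20 was at 0. Their part in the members' differences was not tested, and in a sorted bulk population fewer cells of a type and less RNA per cell cannot be told apart. Other marker sums in Tet2KO were 106.3% of WT for megakaryocyte genes, 110.9% for neutrophil granule genes and 114.5% for monocyte and dendritic genes. They were 111.5% for lymphoid genes, 105.3% for stem and multipotent genes and 93.6% for mast cell, basophil and eosinophil genes, among which Tpsab1 was at 0. Single genes within these lists did not all follow the sums. In Tet2KO against WT, 4 megakaryocyte genes rose and 1 fell of 14 tested. For neutrophil granule genes it was 8 and 4 of 15, and for monocyte and dendritic genes 9 and 2 of 14. Lymphoid genes had 6 and 0 of 15, and stem and multipotent genes 4 and 2 of 12. Mast cell, basophil and eosinophil genes had 4 and 4 of 10. Of all genes, 16.6% rose and 16.2% fell. In dKO the marker sums, in the same order, were 105.8%, 88%, 109.8%, 82.8%, 87.9% and 81.8%. Genes that rose and fell in dKO against WT numbered, in that order, 2 and 0, 5 and 5, 6 and 1, 0 and 3, 0 and 5, and 1 and 6. Of all genes, 10.2% rose and 8.97% fell there.

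**Figure D5:**
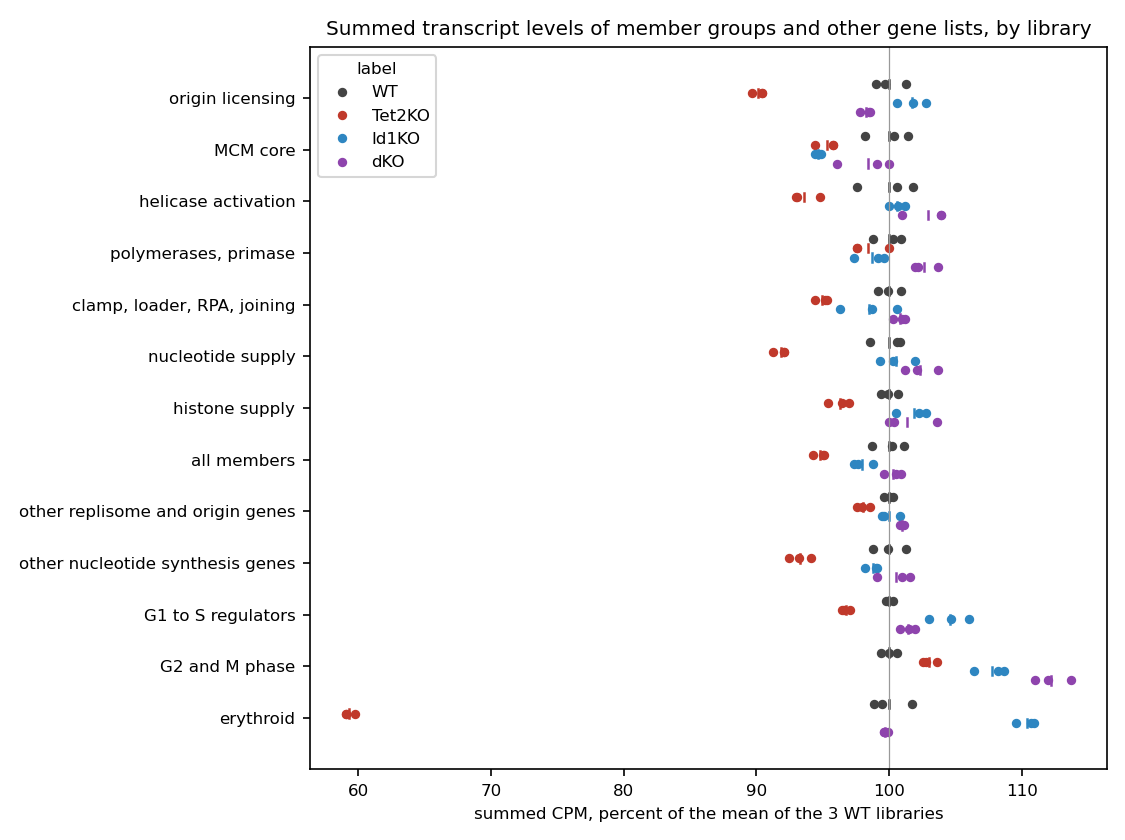
Points give the summed CPM of each member role group and of other gene lists in each library, as percent of the mean of the 3 WT libraries (horizontal axis), and ticks the mean of a label. Origin licensing sums in Tet2KO lie at 89.7% to 90.4%, polymerase sums at 97.6% to 100%, and the erythroid sums of the same libraries at 59.1% to 59.8%.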

How the data were processed

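The members and gene lists were chosen with earlier results of these data known. Per the submitters' processing notes, reads were processed with STAR and RSEM on mm10, and the labels' protocols name a stranded total RNA kit with ribosomal RNA depletion. Versions and the strand setting are not given in the sources used here. In all, 13 members share at least 200 bp of exon with another gene, whose reads their counts may hold. Among them are Gins2 with Gse1 (2758 bp), Rfc2 with Lat2 (952 bp) and Mcm7 with Ap4m1 (321 bp), all on opposite strands. Gse1 was at a mean of 129 CPM, with a log2 fold change of 0.18 in Tet2KO against WT. The deposited values are RSEM expected counts per gene, not normalized by the authors, of which 5.06% were not whole, and they were rounded here. Totals ran from 19024905 to 19959183 per library in WT, 16176673 to 18386991 in Tet2KO, 17994745 to 19139395 in Id1KO and 15706407 to 16881651 in dKO. Member counts began at 341 per library, and both counting error and the spread between libraries limit precision. Their shares were not separated here.

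All 55450 identifiers matched GENCODE M21 (GRCm38). edgeR 4.0.16 in R 4.3.3 was run on 12 libraries with filterByExpr (minimum count 10), TMM scaling, 1 mean per label and quasi-likelihood F-tests of 6 contrasts, two-sided, with Benjamini-Hochberg adjustment over 14346 genes and a threshold of 0.05. The common biological coefficient of variation was 0.031. All 12 pairs of libraries within a label differed by more than sampling noise (chi-square per gene 1.52 to 5.35) and were kept apart, which does not show separate cell samples. RPKM used merged exon length.

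Members named with values in each library were the 3 highest and 3 lowest called per contrast and the 2 with the highest RPKM per role. From other lists the 2 highest and 2 lowest called in Tet2KO against WT and dKO against Tet2KO were eligible. Promoters came from RefSeq windows. Alternatives were other scalings, DESeq2 1.42.0, filters, leaving out each library, a replicate block, a fold threshold, thinned counts, added copies and summed libraries. Copies were sought with blast 2.17.0 at 95% identity over at least 200 bp. The steps were tested on simulated data.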

Additional observations from a re-analysis of the deposited data

Results flagged for a closer look

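The 12 members below were selected because their difference between the labels with and without Tet2 knockout itself differed between the Id1 backgrounds, by the edgeR interaction test at an adjusted p under 0.05. All 12 values were positive. The interaction, in log2 units, was 0.33 for Rfc4, 0.27 for Dut, 0.24 for Gins1 and 0.22 for Rfc3. It was 0.18 for Mcm10 and Rrm2, 0.16 for Mcm5, Fen1 and Lig1, 0.15 for Mcm7, and 0.14 for Mcm4 and Rrm1. The values of Rfc4, Dut, Mcm4, Mcm7, Mcm10, Fen1 and Rrm1 stayed past the threshold in each of the 12 fits that left out 1 library. The others did not, with edgeR adjusted p of up to 0.142 for Rfc3 without dKO replicate 3, 0.0735 for Lig1 without Tet2KO replicate 2, 0.0696 for Gins1 without Tet2KO replicate 1, 0.0648 for Mcm5 without dKO replicate 1 and 0.0611 for Rrm2 without Id1KO replicate 1. Of the 12 fits, Rfc3 was lost in 10, Mcm5 in 8, Gins1 in 6, Lig1 in 3 and Rrm2 in 2. Erythroid markers had positive interactions for 18 of 20 genes (90%, all genes 7.46%) in the same libraries, and their part in the members' values was not tested.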

How the results depend on the processing

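In the fits that each left out 1 library, members that fell in Tet2KO against WT numbered 17 to 26 (all genes 12.2% to 16.4%). Members that rose there numbered 0 to 1 (all genes 14% to 17.8%), the 1 without WT replicate 2. Members that rose in dKO against Tet2KO numbered 16 to 20 (all genes 9.86% to 12.9%), with 0 falling (all genes 10.4% to 13.5%). In Id1KO against WT, 1 to 5 rose (all genes 5.21% to 8.23%) and 0 to 7 fell (all genes 5.12% to 8.13%). In dKO against WT, 3 to 8 rose (all genes 7.42% to 10.4%) and 1 to 2 fell (all genes 6.3% to 9.12%). In dKO against Id1KO, 2 to 7 rose (all genes 8% to 10.7%) and 2 to 4 fell (all genes 6.48% to 8.8%). Interactions were positive for 8 to 15 (all genes 5.32% to 7.3%) and negative for 0 (all genes 5.55% to 7.52%).

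Against a 1.2-fold change (glmTreat) 0 members passed in every contrast. With the libraries of a label summed and additive effects of both labels, 0 passed, and 3 members for the Tet2 label and 4 for the Id1 label had an unadjusted p under 0.05. The Mcm7 change with the Tet2 label was then 0.00, a change of sign when unrounded. That model has 4 sums and 1 residual degree of freedom. At a threshold of 0.01, 15 members fell in Tet2KO against WT (all genes 10.6%), 1 rose and 0 fell in Id1KO against WT (all genes 3.72% and 3.84%), 2 rose in dKO against WT (all genes 5.88%), 3 rose in dKO against Id1KO (all genes 6.39%) and 5 interactions were positive (all genes 3.65%). DESeq2 left 3 falling in Id1KO against WT (all genes 4.96%) and 3 rising in dKO against Id1KO (all genes 7.31%). Thinned counts left the same member numbers (all genes 6.68% and 9.66%). DESeq2 called 19 falling in Tet2KO against WT (all genes 12.2%) and 17 rising in dKO against Tet2KO (all genes 9.38%). With only the libraries compared, 3 rose in dKO against WT (all genes 8.98%) and 3 in dKO against Id1KO (all genes 9.53%). Without a filter on low counts 4 fell in dKO against WT (all genes 6.26%). Restricting promoters to bases before the start took the E2F share to 22.0%. The cause of these changes was not tested, apart from the stricter thresholds.

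Same-numbered libraries had correlations of -0.097 to 0.11, and libraries with other numbers had correlations of -0.1 to 0.17. Of 12 libraries, 7 correlated best with their own number. Whether replicate numbers pair the libraries was not tested. With a replicate block 23 members fell in Tet2KO against WT (all genes 15.6%) and 20 rose in dKO against Tet2KO (all genes 12.3%). Under the other scalings, the median log2 fold change of all genes lay between -0.01 and 0.009 in every contrast. With TMM scaling it lay between -0.008 and 0.009. A single cell sample per label, if that is what the labels mean, limits every comparison, and the libraries labelled null do not show lower Tet2 or Id1.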
